A study of Mus musculus with 8 samples.

Results

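The ERV1 families, the class I endogenous retroviruses of the mouse genome, are described here as measured by RNA sequencing of mouse testis and of RNA bound to an antibody against RNF17. They were taken as every entry of the 2 deposited transposon tables whose name places it in the ERV1 family group of LTR elements, in either orientation. This gave 220 of 1268 entries, which are 110 of 634 families, each counted once in sense and once in antisense. One table holds reads that map to a single place in the genome (unique reads) and the other holds reads that map to several (multiple reads).

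The 8 libraries fall into 4 groups of 2, all from C57BL/6 mice aged 6 weeks. Whole testis was sequenced without an antibody from mice labelled heterozygous for RNF17 and from mice labelled homozygous for RNF17. RNA was also recovered with an RNF17 antibody from testis lysate of each genotype, and these immunoprecipitates are called het IP and hom IP below. The labels name neither the altered allele nor the animals behind each library, and p-values here reflect just the spread of these libraries, which may be technical. No immunoprecipitate with an unrelated antibody was analysed here, so the hom IP and the testis libraries are the available backgrounds.

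Class I endogenous retroviruses resemble gammaretroviruses such as murine leukaemia virus (MLV), and a full copy has an internal part with viral genes between 2 long terminal repeats (LTRs) that carry the promoter. In early embryos and embryonic stem cells their silencing depends on TRIM28 and SETDB1, with zinc finger proteins such as ZFP809 that bind the proviral sequence. In male germ cells, PIWI proteins with their piRNAs and DNA methylation act on many retrotransposons. RNF17, made in germ cells, carries Tudor domains, modules that recognise the methylated arginines found on PIWI proteins.

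Genic reads per library ranged from 5661754 to 50575649. Levels are given as CPM, counts scaled to the genic library size after TMM adjustment, so that a shift of the whole transposon pool is kept. Rnf17 itself stood at 518 and 532 CPM in heterozygous testis and at 50.1 and 105 CPM in homozygous testis, in the order of replicates 1 and 2. Its groups did not overlap, with an edgeR adjusted p of 0.144. Markers of spermatogonia and spermatocytes were present in all 8 libraries. The 5 blood markers, 2 of them without reads, summed to between 4.185 and 12.88 CPM per library. The 4 epididymis markers summed to 54.53 CPM in homozygous testis replicate 2 and to between 2.259 and 10.2 CPM in the other libraries. The 6 elongating spermatid markers summed to 3749 and 18640 CPM (heterozygous testis), 181 and 172 (homozygous testis), 4904 and 4206 (het IP), and 153 and 190 CPM (hom IP). In whole tissue, fewer cells of a type and less RNA per cell cannot be told apart.

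By name, the 110 families comprised 22 relatives of MLV and VL30 (names of the MuLV, MMVL30, MuRRS, MURVY, LTRIS and RLTR1, RLTR4, RLTR5 and RLTR6 kind), 7 other RLTR families, 50 MER families, 24 LTR families and 7 others. VL30 elements are small retrovirus-like elements that can be packaged by MLV, MuRRS are murine retrovirus-related sequences, and MURVY is a retroviral repeat of the Y chromosome. MER families are mostly old repeats. Of the 220 entries, 17 had no unique read in any library and 133 had unique reads in all 8. The 8 entries with the most unique reads held 41.5% of the summed ERV1 level, and the corresponding 8 entries of the multiple table held 72.9%. Lengths of the families are not in the tables, so these shares count reads and do not rank transcription between families.

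Unique ERV1 reads summed to 4140 and 2907 CPM (heterozygous testis), 3196 and 2813 (homozygous testis), 3650 and 4273 (het IP), and 2348 and 2597 CPM (hom IP). Both hom IP libraries lay below all 6 others, and the 2 testis genotypes overlapped. The difference of the mean log2 levels was -0.21 between homozygous and heterozygous testis, and 0.68 between het IP and hom IP. The replicate SDs of the 2 groups, combined as the root of their summed squares, were 0.38 in testis and 0.19 in the IPs. Both differences turned direction with scaling, to 0.22 in testis with total genic reads and to -0.21 between the IPs with TMM within the transposon table. ERV1 made up 2.05% to 3.96% of all unique transposon reads of a library. The replicate 1 testis libraries carried many more unique transposon reads of all kinds (201500 CPM in heterozygotes, 137900 in homozygotes) than the replicate 2 libraries (81770 and 81350). In ERV1 that gap between replicates was smaller, as the sums show.

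**Figure D1:**
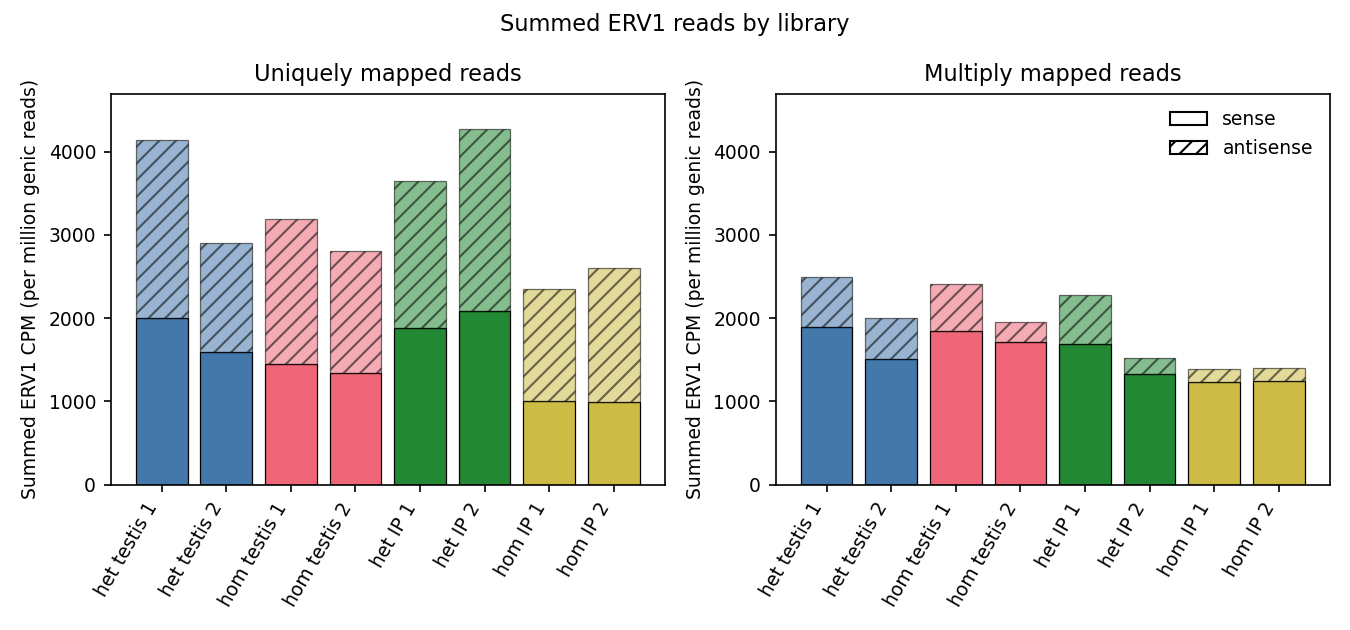
Summed CPM of all 220 ERV1 entries in each of the 8 libraries (bars, 1 per library), split into sense (plain) and antisense (hatched) reads, for unique reads on the left and multiple reads on the right. With unique reads the hom IP libraries are lowest at 2348 and 2597 CPM and the het IP libraries stand at 3650 and 4273 CPM, an order that turns with TMM within the transposon table. With multiple reads most of the signal is sense.

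Sense and antisense reads were about equally frequent in the sum, but not within the kinds of family. Antisense reads made up between 45.4% and 61.6% of unique ERV1 reads per library, and the 2 highest shares were those of the hom IP libraries (57.3% and 61.6%). The internal parts, 29 families, were mostly read in sense, with 33.1% to 47.95% antisense per library. The remaining 81 families, LTRs and unspecified pieces, were mostly read in antisense, with 50.4% to 77.55%. MLV and VL30 relatives had the lowest antisense shares among the name groups, from 21.9% to 30.6%, and MER families ranged from 55.3% to 84.9%. Single families went further. MuRRS-int was 2.85% to 9.04% antisense per library and MuLV-int 4.99% to 15.45%, whereas MER110A was 98.5% to 100%, MER31A 87.8% to 97.0% and RMER5 59.6% to 88.3%. MMVL30-int varied most of these 6, from 5.23% in hom IP replicate 2 to 50.7% in heterozygous testis replicate 2.

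Homozygous and heterozygous testes were compared to ask whether ERV1 RNA differs with the Rnf17 genotype. No ERV1 entry was called by edgeR among 140 tested with unique reads (4 had an unadjusted p under 0.05), nor by DESeq2. The same held for all 1074 transposon entries, of which 0% were called in either direction and 19 had an unadjusted p under 0.05. Of 14236 genes 0% were called either, and Rnf17 itself had an edgeR adjusted p of 0.144. The counts of 0 therefore do not show that ERV1 entries were alike between the genotypes. The median log2 difference of ERV1 entries was -0.09, beside -0.24 for all transposon entries. Scaling moved this median: with TMM within the transposon table it was 0.09 for ERV1 and 0.03 for all entries, and with total genic reads 0.34 and 0.17.

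Although no entry was called, some ERV1 entries had testis groups that did not overlap. With unique reads, 13 of 140 ERV1 entries (9.29%) lay higher in both homozygous libraries than in either heterozygous one, where the share over all transposon entries was 3.26%, and 23 (16.4%) lay lower, where it was 13.8%. Of the 13 higher entries, 8 were MLV and VL30 relatives (19.05% of the 42 tested, against 3.26% of all transposon entries). Of the same 13, 10 were antisense (10 of 75 ERV1 antisense entries tested), and over all antisense entries 23 of 548 lay higher. Of the 23 lower entries, 19 were sense, and over all sense entries 113 of 526 lay lower (21.5%, against 29.2% of the ERV1 sense entries). These shares are descriptions of 2 libraries against 2, and their difference from the other transposons was not tested. Marker sums also stood apart between the same testis groups: Sertoli cell markers (5 of 6 listed in the table) were at 347.5 and 408 CPM in heterozygous and 715 and 1002 CPM in homozygous testis, and the 5 Leydig cell markers, 1 of them without reads, at 172 and 262 against 395 and 677 CPM. The 6 round spermatid markers were at 1190 and 3941 against 321 and 574 CPM. Peritubular myoid cell markers were at 91.68 and 75.47 against 212.7 and 118.4 CPM. Macrophage markers (3 of 4 listed in the table) were at 3.232 and 3.335 against 6.274 and 12.44 CPM. The sums of spermatogonia and of spermatocyte markers overlapped between the testis groups. Their part in the ERV1 differences was not tested.

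In the 3 largest downward differences without overlap in testis, heterozygous replicate 2 was the highest of all 8 libraries. MURVY-LTR sense stood at 34.5 and 148 CPM in heterozygous testis and at 20.6 and 16.5 CPM in homozygous testis. Its groups did not overlap, but most of the gap came from heterozygous replicate 2, and the log2 difference was -2.30 (SE 0.90, edgeR adjusted p = 0.9998). LTR31 sense followed the same pattern, at 2.72 and 15.7 against 1.52 and 2.53 CPM (log2 -2.18, SE 0.94, the same adjusted p). MER57F sense was at 1.53 and 4.58 against 0.911 and 0.482 CPM. Heterozygous replicate 2 was also the library with the highest elongating spermatid markers (18640 CPM, against 3749 in replicate 1), and the part of this difference in the result was not tested. Some ERV1 entries were called lower without heterozygous replicate 1, MURVY-LTR sense and LTR31 sense among them. That fit leaves the group a lone library assumed to vary like the other, and the share of all entries called in it is not given here.

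The 3 largest upward differences without overlap were antisense entries at low levels. LTR28 antisense stood at 1.53 and 2.09 CPM in heterozygous and 3.74 and 7.17 CPM in homozygous testis, a log2 difference of 1.58 (SE 0.96). LTR68 antisense was at 1.36 and 0.916 against 4.05 and 2.27 CPM, and MER21-int antisense at 1.36 and 0.523 against 3.24 and 1.47 CPM. Their homozygous values were higher in each library, but each adjusted p was 0.9998. Among the entries with the highest mean CPM, MMVL30-int sense, the body of VL30, was at 223 and 173 CPM in heterozygous and 151 and 229 CPM in homozygous testis, and the groups overlapped. RodERV21-int antisense, the entry with the highest mean CPM, was at 307 and 189 against 241 and 112.5 CPM, also overlapping. RMER5 antisense, at 313 and 157.5 against 242 and 276 CPM, overlapped as well.

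The 2 immunoprecipitates were compared to ask which ERV1 RNAs the RNF17 antibody recovered more from heterozygous than from homozygous testis. With unique reads, 65 of 125 ERV1 entries were higher in het IP than in hom IP and 6 were lower (edgeR, adjusted p under 0.05). Over all transposon entries 55.5% were higher and 2.16% lower (57.7% called in either direction), and the ERV1 shares were 52% and 4.8%, so the higher share is near the background of all transposons. The medians were also alike, a log2 difference of 0.88 for ERV1 entries and 0.87 for all entries. The groups did not overlap for 81 ERV1 entries higher in het IP (64.8%, against 75.9% of all entries) and for 11 lower (8.8%, against 6.06%). DESeq2 called 48 of the 65 higher and 3 of the 6 lower, where it called 48.4% and 2.05% of all entries. When libraries were scaled within the transposon table, which sets the median of all entries to -0.02, ERV1 split into 17 higher and 19 lower, and those 17 were all among the 65. With total genic reads the split was 78 higher and 1 lower. The shares of all entries called with these scalings are not given here, so the splits are not set against the other transposons. Fewer ERV1 entries were called whichever IP library was left out, and each such fit leaves a group with a lone library.

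The elongating spermatid markers differed between the IPs in the same direction (4904 and 4206 CPM in het IP against 153 and 190 in hom IP), and their part in the ERV1 difference was not tested. Round spermatid markers also stood higher in het IP (1586 and 1522 against 545 and 514 CPM). Lower in het IP were Sertoli cell markers (338.5 and 323 against 713 and 438 CPM) and the 3 peritubular myoid cell markers (73.5 and 68 against 148 and 182.5 CPM). The 6 spermatocyte markers were lower too (2411 and 2658 against 2918 and 3476 CPM). The part of these in the result was not tested either. Sense and antisense ERV1 entries were then counted separately. Of 56 sense entries, 37 were higher (66.1%) and 1 lower, with a median log2 difference of 1.34. Of 69 antisense entries, 28 were higher (40.6%) and 5 lower, with a median of 0.58. Over all transposon entries the order was the reverse, with 250 of 480 sense entries (52.1%, median 0.75) and 291 of 494 antisense entries (58.9%, median 0.94) higher. Whether this order differs between ERV1 and other families was not tested.

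**Figure D2:**
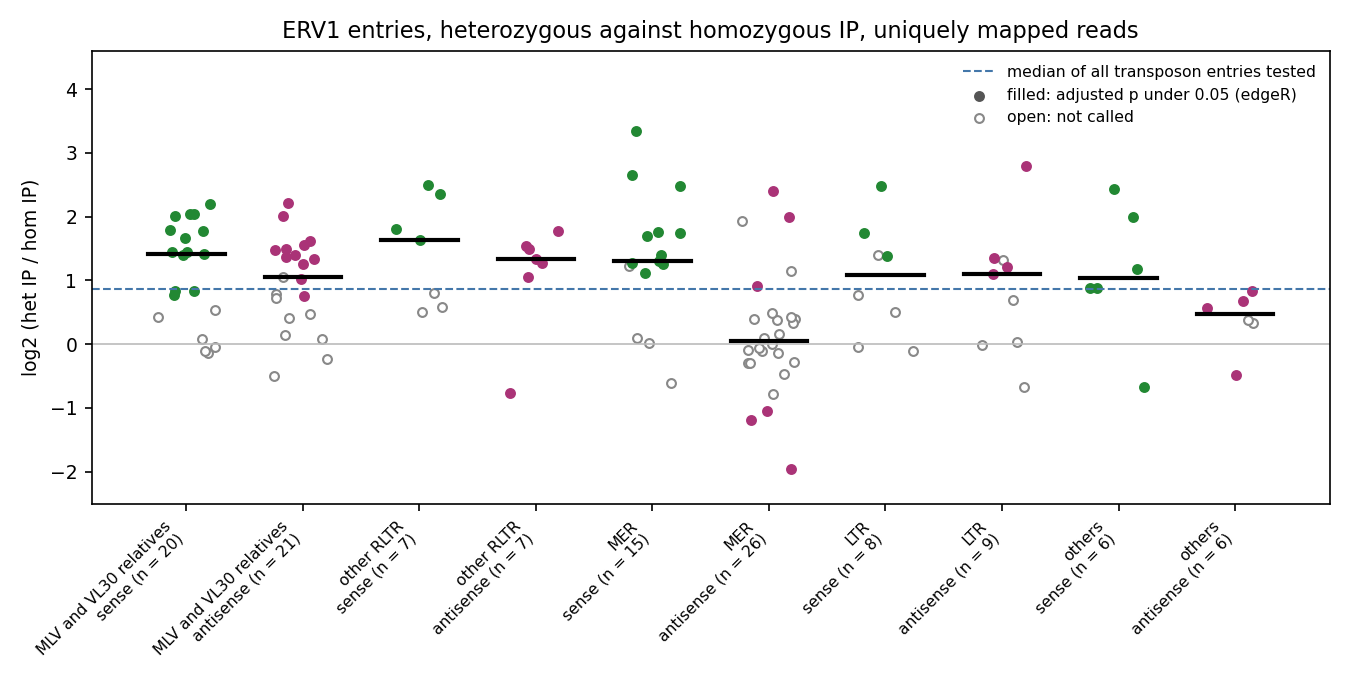
The log2 difference between het IP and hom IP (vertical axis) of each ERV1 entry tested with unique reads (points), grouped by family name and orientation, with the median of each group (black bar), 0 (grey line) and the median of all transposon entries tested, 0.87 (dashed line). Filled points have an edgeR adjusted p under 0.05. Of the 56 sense points 36 lie above the dashed line, while antisense MER entries centre near 0. With TMM within the transposon table the ERV1 calls split into 17 higher and 19 lower, with no share over all entries given.

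Among MLV and VL30 relatives, 26 of 41 entries tested were higher in het IP (63.4%) and 0 lower, with a median log2 difference of 1.26. The shares over all transposon entries were 55.5% higher and 2.16% lower, and whether the relatives differ from them was not tested. MuRRS4-int antisense, reads opposite to the internal part of a MuRRS element, had 48.4 and 38.8 CPM in het IP and 10.2 and 8.71 CPM in hom IP. The groups were well apart, and edgeR gave a difference of 2.21 on the log2 scale (SE 0.24, adjusted p = 1.915e-04). Its sense counterpart, with more reads (125 and 162 against 72.8 and 88.7 CPM), rose less, by 0.83 (SE 0.20). LTRIS_Mus sense stood at 42.5 and 55.2 against 11.3 and 12.9 CPM, and LTRIS2 sense at 28 and 38.3 against 8.68 and 7.42 CPM, log2 differences of 2.01 (SE 0.23) and 2.04 (SE 0.27). Both are LTRs, and for both the het IP values also exceeded all 4 testis values. RLTR1B-int sense (86 and 101.5 against 51.4 and 58.7 CPM) and RLTR6-int sense (77.1 and 86.1 against 44.9 and 46.1 CPM) were higher as well, by 0.77 (SE 0.18) and 0.84 (SE 0.18). Their differences and that of MuRRS4-int sense lay below the median of all transposon entries, 0.87. These entries thus did not exceed the shift of the whole transposon pool.

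The body of VL30 itself did not follow. MMVL30-int sense had 180 and 277 CPM in het IP and 255 and 246 CPM in hom IP, and these overlapped (edgeR log2 difference -0.13, SE 0.21, adjusted p = 0.615). The antisense reads of the same family were fewer, at 29.2 in both het IP libraries and 15.3 and 13.6 CPM in hom IP, and were called higher (log2 1.02, SE 0.22). RLTR4_MM-int sense, the internal part that goes with the LTR named RLTR4 of MLV-like proviruses, was at 42.3 and 54.4 against 53.8 and 45.3 CPM, a log2 difference of -0.04 (SE 0.20). MuLV-int sense, another MLV-like internal part, was instead higher, at 93.3 and 142 against 32.3 and 55.3 CPM (log2 1.42, SE 0.29). MMVL30-int antisense, RLTR4_MM-int sense and MuLV-int sense are named with their values already known, outside the naming rule.

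Of 14 entries of the other RLTR families, 10 were higher (71.4%) and 1 lower (7.14%). Beside them stand 55.5% and 2.16% of all transposon entries, and the difference in shares was not tested. RLTR24 sense stood at 56.5 and 55 CPM in het IP and 12 and 7.91 CPM in hom IP, beside 15.8 and 9.68 CPM in heterozygous testis and 27.7 and 19.65 CPM in homozygous testis. Both het IP values lay above all 4 testis values, and both hom IP values lay below the homozygous testis values. The log2 difference between the IPs was 2.49 (SE 0.25, edgeR adjusted p = 1.51e-04). The exception was RLTR30 antisense, at 10.3 and 12 against 18.1 and 19.7 CPM, which was lower in het IP by 0.77 on the log2 scale (SE 0.25, adjusted p = 0.0283, and 0.0518 by DESeq2).

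Rodent families outside these name groups gave the ERV1 entry with the smallest adjusted p of the comparison. RodERV21-int sense, the internal part of a rodent ERV, stood at 236 and 241 CPM in het IP and 50.8 and 37.8 CPM in hom IP. The heterozygous and homozygous testis libraries lay between these groups, at 104 and 134 and at 90.2 and 96.8 CPM. The log2 difference was 2.43 (SE 0.20, adjusted p = 7.473e-05). Its antisense reads were more numerous but differed less, at 445 and 705 against 365 and 524 CPM, with overlapping groups (log2 0.37, SE 0.27, adjusted p = 0.271). RMER21B sense stood at 138 and 161 against 46 and 29.4 CPM (log2 1.99, SE 0.24, adjusted p = 2.587e-04).

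The 6 entries lower in het IP were called with less margin. MMERGLN-int sense, the internal part of a GLN gammaretroviral family, was at 46.2 and 55.8 CPM in het IP and 83.1 and 79.2 CPM in hom IP, a log2 difference of -0.67 (SE 0.18, adjusted p = 0.0121). RMER5 antisense was at 198 and 230 against 266 and 331 CPM (log2 -0.48, SE 0.18, edgeR adjusted p = 0.049). RMER5 sense was higher by 0.88 (SE 0.18), near the median of all transposon entries, 0.87. Between the IPs, RMER5 was the only ERV1 family called in opposite directions. MER31-int antisense, at 2.93 and 2.81 against 5.73 and 16.5 CPM, had the largest downward difference of the 6 (log2 -1.95, SE 0.51, adjusted p = 0.0102). MER90 antisense and MER50B antisense, at 3.12 and 4.53 against 6.84 and 8.71 CPM and at 1.13 and 1.56 against 2.96 and 3.07 CPM, had adjusted p of 0.0438 and 0.0499. With total genic reads 1 of the 6 was called, MER31-int antisense, and within the transposon table all 6 were.

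Families named MER and LTR had lower shares of calls. Of 41 MER entries tested, 14 were higher and 3 lower (34.1% and 7.32%), with a median log2 difference of 0.40. Of 17 LTR entries 7 were higher (41.2%) and 0 lower. Among all transposon entries the shares were 55.5% and 2.16%, and these differences in shares were not tested. MER110 sense, at 17.7 and 13.8 CPM in het IP and 2.77 and 2.26 CPM in hom IP, was higher in both het IP libraries than in any of the 6 others (log2 2.65, SE 0.36, edgeR adjusted p = 4.312e-04). By family, 18 were called higher in both orientations, 15 in sense only with antisense tested, and 8 in antisense only with sense tested. The shares over all transposon families are not given here, so these counts are not read as results about ERV1.

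**Figure D3:**
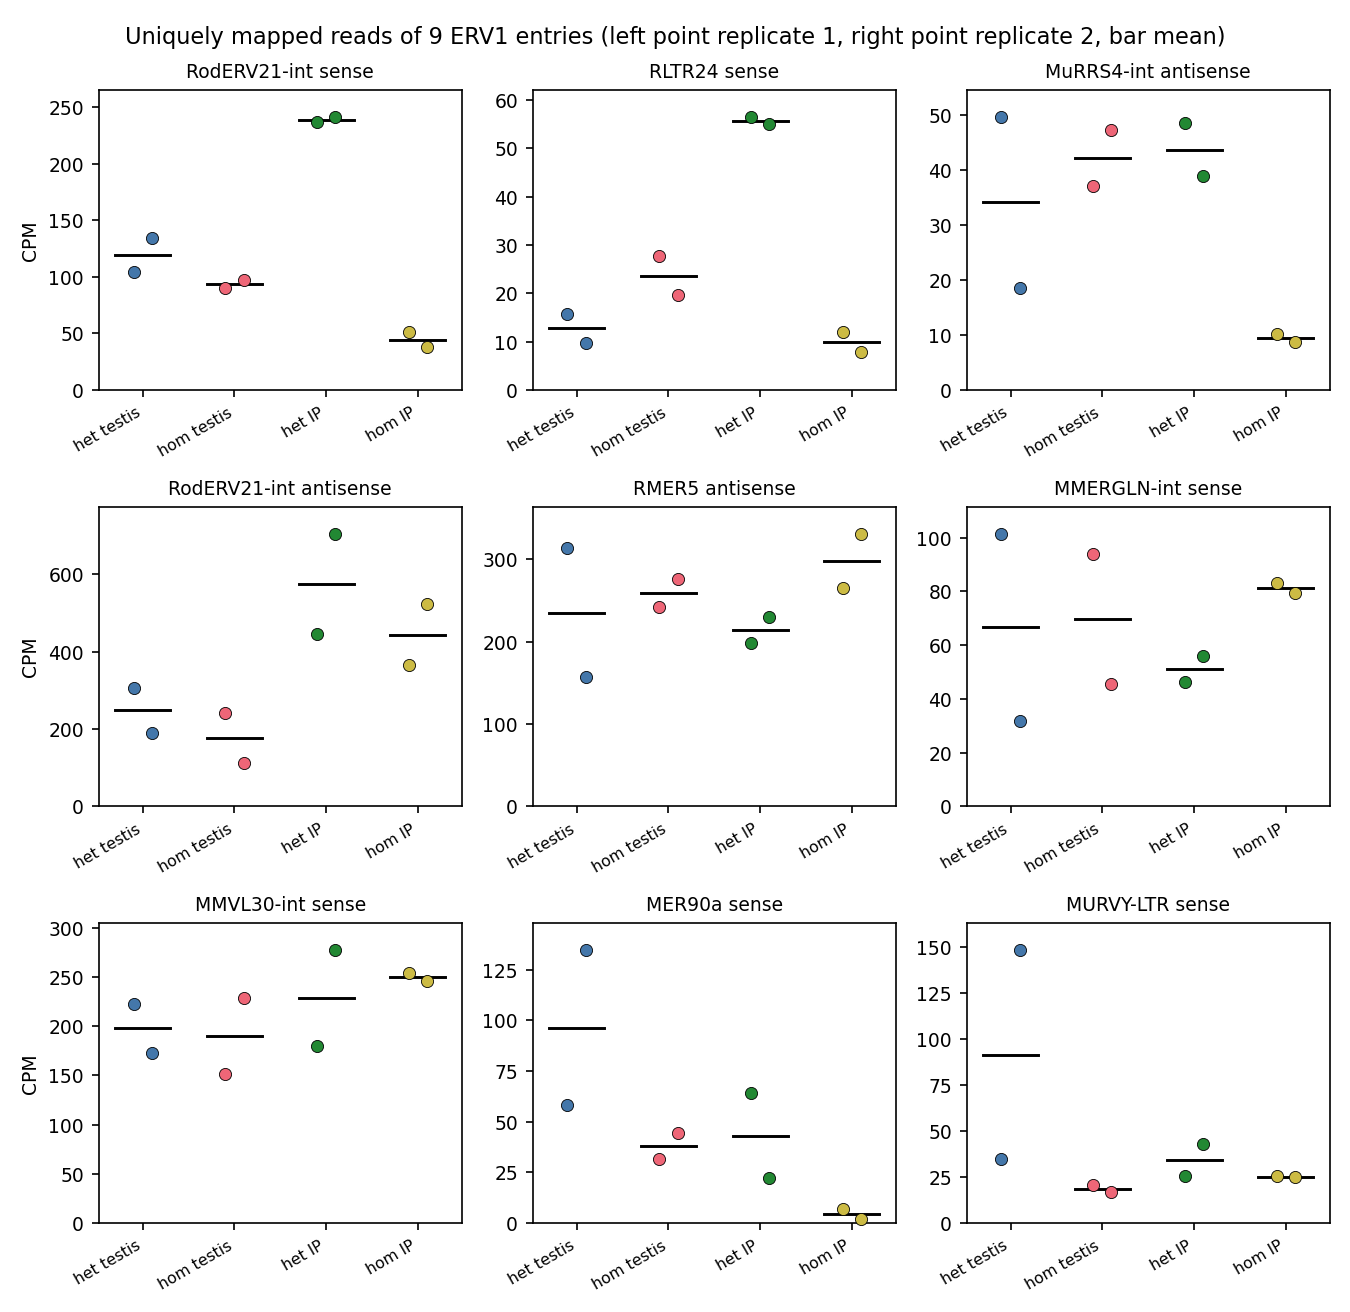
CPM of unique reads for 9 ERV1 entries in each library (points, replicate 1 left and replicate 2 right) with the mean of the 2 libraries of a group (bar), each panel with its own axis from 0. RodERV21-int sense and RLTR24 sense are highest in both het IP libraries, RMER5 antisense and MMERGLN-int sense are higher in hom IP than in het IP, and MURVY-LTR sense is highest in heterozygous testis replicate 2 at 148 CPM.

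Each IP was then compared with the testis libraries of its genotype, which serve as its input. These comparisons share libraries with the ones above. For het IP against heterozygous testis, 0 of 134 ERV1 entries were called by edgeR (13 with an unadjusted p under 0.05) and 0 by DESeq2. Of all 1031 entries, edgeR called 0.097% in each direction, and 67 had an unadjusted p under 0.05. It also called 0% of 13705 genes, so the count of 0 does not show that ERV1 entries were alike in IP and testis. The groups did not overlap for 39 ERV1 entries higher in the IP (29.1%, against 14.3% of all entries) and for 21 lower (15.7%, against 17.1%). LTRIS_Mus sense, at 42.5 and 55.2 CPM in the IP and 6.63 and 13.5 CPM in testis, had the smallest p (log2 2.27, SE 0.76, adjusted p = 0.37). RLTR5_Mm sense came next, with 4.44 and 1.25 CPM in the IP and 0 and 0.589 CPM in testis (adjusted p = 0.421). Leaving out either heterozygous testis library changed the count of calls, each time with a lone testis library. The share of all entries called in those fits is not given here, so the counts are not read as results about ERV1.

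For hom IP against homozygous testis, 2 of 126 ERV1 entries were higher and 32 lower, while over all entries 1.5% were higher and 34.2% lower (35.7% in either direction). DESeq2 called 2 higher and 21 lower, beside 1.3% and 24.8% of all entries. The groups did not overlap for 9 ERV1 entries higher and 79 lower (7.14% and 62.7%, against 5.4% and 67.7% of all entries). The median log2 difference was -0.74 for ERV1 and -0.89 for all entries. Scaling within the transposon table gave 12 ERV1 entries higher and 6 lower, and the share of all entries called with it is not given here. MER90a sense was at 6.65 and 2.1 CPM in hom IP and 31.8 and 44.5 CPM in homozygous testis (log2 -3.14, SE 0.49, edgeR adjusted p = 2.444e-06). MuRRS4-int antisense was at 10.2 and 8.71 against 36.9 and 47.2 CPM (log2 -2.16), and MER52-int sense at 3.33 and 4.68 against 19.8 and 20.2 CPM (log2 -2.32). All 3 were lower in both IP libraries than in both testis libraries. MER21-int antisense had 0 reads in both hom IP libraries and 3.24 and 1.47 CPM in homozygous testis, at least 6.81-fold lower when the group is given a floor of 3 reads. LTR37B sense had 1 read in the hom IP group against 3.74 and 1.81 CPM in testis (adjusted p = 6.058e-04), and LTRIS4 sense was at 1.48 and 0.323 against 11.6 and 2.87 CPM (log2 -3.00, SE 0.74).

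The 2 entries higher in hom IP were RodERV21-int antisense, at 365 and 524 against 241 and 112.5 CPM (log2 1.33, SE 0.45, adjusted p = 0.0155), and MER50B antisense, at 2.96 and 3.07 against 0.405 and 0.301 CPM (log2 3.15, SE 0.76, adjusted p = 7.888e-04). RodERV21-int antisense was also at 445 and 705 CPM in het IP against 307 and 189 CPM in heterozygous testis, so its reads were more frequent in all 4 IP libraries than in any testis library. Its call was lost with total genic reads (log2 0.85, adjusted p = 0.307) and without either hom IP library (adjusted p = 0.214 and 0.465). RodERV21-int sense was called lower in hom IP than in homozygous testis (log2 -1.08), so this family was called in opposite directions. The calls of this comparison rested on the libraries included, as their count changed widely when 1 library was left out.

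Dividing each IP by its testis gives 1 ratio per genotype. The interaction asks whether the log2 ratio of IP to testis differs between the genotypes, and it uses all 8 libraries. EdgeR called 0 of 140 ERV1 entries (26 with an unadjusted p under 0.05), where 0% of all 1060 entries were called (110 with an unadjusted p under 0.05). This count of 0 does not show that the ratios were alike between the genotypes. DESeq2 called 3, all higher in heterozygotes, where it called 1.13% of all entries higher and 0.0943% lower. The median was 0.76 for ERV1 and 0.61 for all entries. The smallest p belonged to RLTR24 sense, whose log2 ratio of IP to testis was higher in heterozygotes by 3.39 (SE 0.73, edgeR adjusted p = 0.16, DESeq2 0.00909). MER110 sense followed at 3.35 (SE 0.91, edgeR adjusted p = 0.208, DESeq2 0.0415), and LTR68 antisense was the remaining DESeq2 call (4.29, SE 1.21, 0.0493). Entries were called when either heterozygous testis library was left out, each time with a lone library in that group. Those counts are not read as results about ERV1.

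Reads that map to several places come mostly from families with many near-identical copies, and the authors' rule for assigning them is not given in the sources used here. Across all libraries RLTR4_MM-int had 10.2 multiple reads for each unique read, RLTR4_Mm 8.78, MMVL30-int 1.66 and RLTR6-int 1.03. RodERV21-int (0.066), RMER5 (0.085) and MER90a (0.023), by contrast, were seen almost wholly through unique reads. ERV1 made up 3.17% of multiple transposon reads in heterozygous testis replicate 1 and 19.9% in hom IP replicate 1, the lowest and highest shares. Summed multiple ERV1 reads gave 2498 and 2001 CPM for heterozygous testis, 2408 and 1953 for homozygous testis, 2278 and 1522 for het IP, and 1391 and 1403 for hom IP. All transposon multiple reads together varied far more, from 7006 CPM in hom IP replicate 1 to 78760 CPM in heterozygous testis replicate 1, and within het IP from 53550 to 13620 CPM.

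EdgeR called 0 ERV1 entries with multiple reads in each of the 5 comparisons. Under an unadjusted p of 0.05 lay 1 of 78 tested in testis (3 of 757 over all transposon entries) and 4 of 44 for het IP against hom IP (120 of 404). The counts were 1 of 75 for het IP against testis (6 of 748), 13 of 47 for hom IP against testis (179 of 444) and 2 of 77 for the interaction (31 of 754). DESeq2 called 15 higher in het IP than in hom IP, where it called 62.1% of all entries, and 9 lower in hom IP than in homozygous testis, where it called 31.8%, and 0 in the other 3 comparisons. EdgeR called 0.134% of all entries in het IP against testis and 11% lower in hom IP than in homozygous testis, and no ERV1 entry was among them; in the other 3 comparisons it called 0% of all entries. The testis groups did not overlap for 3 of 78 ERV1 entries higher and 11 lower (3.85% and 14.1%, against 1.06% and 13.6% of all entries). The IPs did not overlap for 30 of 44 ERV1 entries higher in het IP and 3 lower (68.2% and 6.82%, against 76.5% and 1.49% of all entries), with a median log2 difference of 1.45 for ERV1 and 2.725 for all entries. With this spread between replicates, the counts of 0 do not show that the entries were alike between groups. ERV1 entries were called between the IPs when either het IP library was left out, and most without replicate 2. That fit rests on het IP replicate 1 alone, with 53550 CPM of all multiple transposon reads against 13620 in replicate 2. Entries were also called in hom IP against testis without either homozygous testis library. Each of these fits has a lone library in 1 group, so their counts are not read as results about ERV1.

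RLTR4_MM-int sense, the ERV1 entry with the most multiple reads, was at 699 and 642 CPM (heterozygous testis), 832 and 994.5 (homozygous testis), 387 and 464 (het IP), and 571 and 599 CPM (hom IP). Both homozygous testis libraries were higher than both heterozygous ones, and the same order held with unique reads (92.3 and 80.7 against 79.3 and 47.6 CPM), but neither difference was called (log2 0.45, SE 1.54 with multiple reads and 0.45, SE 0.88 with unique reads). Both het IP libraries were the lowest of the 8, at a log2 difference of -0.46 from hom IP (SE 0.28, adjusted p = 0.225). MMVL30-int sense was also lowest in both het IP libraries, at 452 and 448.5, 423 and 405, 333 and 384, and 424 and 440 CPM in the same order of groups. RLTR6-int sense was at 166.5 and 63.2 CPM with the heterozygous testis, 80.05 and 71.4 with the homozygous testis, 91.2 and 89.9 in het IP, and 51.2 and 41.6 in hom IP.

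MuRRS-int sense was the entry with the smallest adjusted p by DESeq2 among ERV1 in the IP comparison of multiple reads. It stood at 112 and 109 CPM in het IP and 15.5 and 13.9 in hom IP, beside 43 and 27.5 for heterozygous and 42.5 and 24.4 for homozygous testis. The het IP values were the 2 highest and the hom IP values the 2 lowest of the 8 libraries, 2.91 apart on the log2 scale (SE 0.85, edgeR adjusted p = 0.156, DESeq2 1.953e-04). With unique reads the same entry was called higher in het IP by edgeR, at 102 and 140 against 32.3 and 44.05 CPM (log2 1.66, SE 0.23, adjusted p = 4.831e-04). RodERV21-int sense, few of whose reads are multiple, was at 21.2 and 3.91 against 0.554 and 0.161 CPM (DESeq2 adjusted p = 0.00144, edgeR 0.156). MuLV-int sense and MMERGLN-int sense had 80.5 and 17.7 against 27.7 and 22.3 CPM, and 42.6 and 26.7 against 27.3 and 39.5 CPM, and both overlapped between the IPs.

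Other multiple-read signals sat in 1 or a few libraries. MER92B antisense was at 189 CPM in replicate 1 and 0.196 in replicate 2 of heterozygous testis, and at 123 and 0 CPM in homozygous testis. It was at 2.08 CPM in het IP replicate 1 and at 0 in the other 3 IP libraries, so nearly all of its reads were in the replicate 1 testis libraries. RMER2 antisense was at 301 CPM in heterozygous testis replicate 2 and between 27 and 69 CPM in the other 7 libraries. MER57-int sense, at 21.3 CPM in the same library, was at 0 to 1.01 CPM elsewhere, and MER34 sense was at 10.9 CPM there and at 0 to 3.78 CPM elsewhere. RLTR14 sense was at 50.7 CPM in het IP replicate 1 and between 0 and 3.54 CPM elsewhere, which is also the library with 53550 CPM of all multiple transposon reads. MER21B antisense stood at 17 and 3.4, 13.3 and 0.422, 15.7 and 0.938, and 0 and 0 CPM in the 4 groups, higher in each replicate 1 library outside hom IP. MuRRS4-int antisense was at 12 and 6.53 CPM in homozygous testis and 0.924 and 0.484 CPM in hom IP (log2 -3.72, SE 1.35, edgeR adjusted p = 0.065, DESeq2 0.0112).

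**Figure D4:**
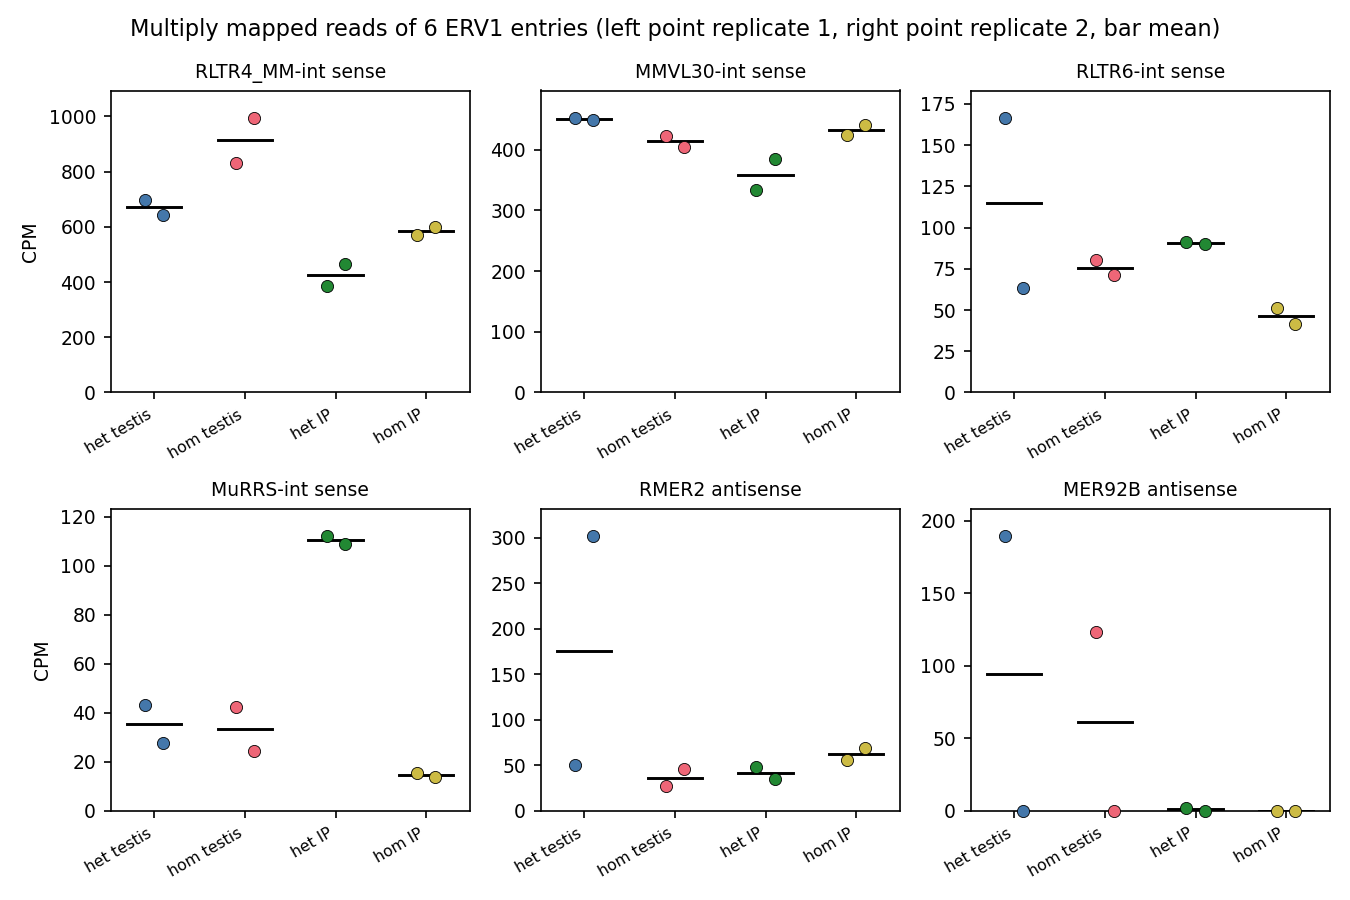
CPM of multiple reads for 6 ERV1 entries in each library (points, replicate 1 left and replicate 2 right) with the mean of the 2 libraries of a group (bar), each panel with its own axis from 0. RLTR4_MM-int sense and MMVL30-int sense are lowest in the het IP libraries, MuRRS-int sense is highest in het IP at 112 and 109 CPM, RMER2 antisense is high in heterozygous testis replicate 2 alone, and MER92B antisense in the replicate 1 testis libraries.

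Genes known to silence or restrict retroviruses were read from the gene table for context. Of 36 listed, 34 were in the table, among them Trim28, Setdb1, Zfp809, the DNA methyltransferases, the PIWI genes and the retroviral receptors Xpr1, Slc7a1 and Slc20a1. Between homozygous and heterozygous testis 0 of 33 tested were called by edgeR (2 with an unadjusted p under 0.05), with a median log2 difference of 0.57 where the median of all genes was 0.10, and 0% of all 14236 genes were called. The list includes Rnf17 itself, which is 1 of those 2 and 1 of the 4 below. Between the IPs, 4 of 32 were higher in het IP (16.8% of all genes were) and 2 lower (14.7% of all genes were). Rnf17 RNA stood at 1273 and 1173 CPM in het IP and 209 and 380 CPM in hom IP (log2 2.05, SE 0.27, adjusted p = 2.171e-04). Cbx5, a heterochromatin protein, was at 242 and 223 against 106 and 110 CPM (log2 1.11, SE 0.19), and Piwil1, a PIWI protein of spermatocytes and round spermatids, at 389 and 412 against 212 and 165 CPM (log2 1.09, SE 0.20). Atf7ip, a partner of SETDB1, was lower, at 119 and 117 against 163 and 264 CPM (log2 -0.86, SE 0.23). Dnmt3l (higher) and Slc7a1 (lower) were the remaining calls and are named after their values were seen. Within each genotype 0 of 32 were called between IP and testis (6 with an unadjusted p under 0.05 in heterozygotes and 3 in homozygotes), and 0 of 33 in the interaction.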

How the data were processed

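Gene and transposon tables hold whole-number read counts deposited by the authors. The submitters' processing notes name STAR and DESeq, with mm9 as build. Their versions, the counting and strand rules and how multiply mapped reads were assigned: not given in the sources used here. Input columns repeated in the IP tables were identical to the testis columns (12 of 12), and 0 columns were left unmapped. The authors' table of differing genes was not used.

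Each whole transposon table was filtered with filterByExpr and fitted in edgeR 4.0.16 (R 4.3.3, quasi-likelihood), with library sizes taken from TMM on the gene table over all 8 libraries. Each pairwise comparison was fitted on its 4 libraries, the interaction on 8. Benjamini-Hochberg adjustment covered all entries tested, and the threshold was 0.05. A floor of 3 reads covers counting error only. The test was also run on simulated data. The recoveries of that run are not reported here, and it is not used as support for the counts of calls. Alternatives were DESeq2 1.42.0, total genic reads, TMM within the transposon table, no filter, a replicate block and leaving out each library; a MURVY name was counted with MuRVY. Members and lists were chosen with earlier results of these data known.

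Named entries are the 8 with the highest mean CPM per table; up to 6 called in each direction per comparison and table by adjusted p, or the 2 smallest p where none was called; and the 3 largest rises and falls without overlap in testis. Rnf17 is always named, with up to 3 other control genes called per comparison. No family sequences or coordinates were used. Henmt1 and Trim5 of the listed silencing genes are not among the gene table's names.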

Additional observations from a re-analysis of the deposited data

How the results depend on the processing

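Of 26 named single-entry differences, 130 alternative values without leaving out a library kept the direction in every case, and 116 kept their side of the threshold while 14 lost the call; with 1 library left out, 74 were unchanged in direction and call, 27 lost the call and 2 gained it. The cause of these changes was not tested. The naming rules favour small adjusted p and large differences, which made kept directions likely beforehand. These values therefore do not speak for entries outside the 26. The counts of ERV1 calls below stand without the share of all entries, and are not read as results about ERV1. Those with 1 library left out come from a fit with a lone library in 1 group. For the comparison of the IPs with unique reads, 36 entries were called with TMM within the transposon table and 46 to 63 with 1 library left out (71 in the analysis reported). For hom IP against testis these were 18 and 0 to 56 (34 reported). With 1 library left out, counts ranged from 0 to 3 in testis, 0 to 69 for het IP against testis and 0 to 50 for the interaction; the interaction had 3 calls with DESeq2, 1 without a filter and 2 with total genic reads, against 0 reported. With multiple reads the IP comparison had 15 calls with DESeq2 and 0 to 74 with 1 library left out, hom IP against testis 9 with DESeq2, 2 without a filter and 0 to 43, and the interaction 0 to 1.

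Summed ERV1 levels turned direction with scaling. The unique-read values reported were -0.21 in testis, 0.68 between the IPs, -0.28 for hom IP against testis and 0.47 for the interaction. Total genic reads gave log2 ratios of 0.22 in testis, 1.00 between the IPs, -0.65 for hom IP against testis and 1.22 for the interaction, which turned testis. TMM within the transposon table gave -0.21, 0.58 and -0.25 for the last 3, which turned all 3. For multiple reads (-0.04 in testis, 0.41 between the IPs, -0.63 for hom IP against testis and 0.37 for the interaction) total genic reads gave 0.39 in testis, -1.0 for hom IP against testis and 1.12 for the interaction. TMM within that table gave 0.63 in testis, -1.93 between the IPs, 1.03 for hom IP against testis and -1.31 for the interaction, each of the 4 in the opposite direction.

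The labels name no animal, batch or day behind a replicate number, and 2 pairs are too few to take a pairing from the data. Deviations of same-numbered libraries over ERV1 entries correlated at 0.44 between the testis genotypes and at -0.01 between the IPs (unique reads), and at 0.66 and -0.01 with multiple reads. Between homozygous testis and het IP it was 0.26 with multiple reads, and over all genes 0.59 between the testis genotypes, so same-numbered testis libraries did deviate together. With a replicate block the interaction had 3 calls with unique reads and the multiple-read comparison of the IPs had 1; the unique-read counts were 57 for the IPs and 29 for hom IP against testis, and no other count moved by over 1.5 times.

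Depth limits the entries with few reads: 145 of 220 unique and 81 of 220 multiple entries had enough reads to be tested in at least 1 comparison.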
